A study of Rattus norvegicus with 6 samples.

Results

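The genes described here are 10 genes of fibroblasts, extracellular matrix and secreted signals in cultures of rat retinal ganglion cells (RGCs), the neurons whose axons form the optic nerve. They comprise 4 genes that had been lower with thrombospondin 1 (TSP1) on these arrays (Inmt, Ccl11, Cebpd and Frzb) and 6 genes that mark fibroblasts or their matrix (Lum, Dcn, Col1a1, Col1a2, Fn1 and Postn). All 10 were measured, by 15 of the 31042 probe sets of the array, a probe set being the short probes that together read a transcript. Cebpd has 3 probe sets and Frzb, Col1a1 and Col1a2 have 2 each. The question was whether the genes that were lower with TSP1 followed the fibroblast markers. Inmt, Ccl11, Cebpd and Frzb were picked by their difference between TSP1 and untreated arrays, and Postn had also stood out in that comparison. Every value of TSP1 against untreated below is thus a description. Where test outcomes of that comparison are given, they are a record and no evidence about the members.

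RGCs were taken from Sprague Dawley rats at postnatal day 6 and kept for 12 days in medium with BDNF and CNTF. They then received recombinant mouse TSP1 for 12 hours, Gpc4 (glypican 4, His-tagged and secreted by HEK293, a line of human kidney cells) for 12 hours, or no protein (untreated). Each condition had 2 arrays, 1 from each of 2 separate cultures, and replicate 1 is called culture 1 and replicate 2 culture 2. Pups of both sexes were used, wells were pooled for each array, the purification removed microglia and fibroblasts on lectin-coated dishes, and the drug FUDR was added to all cultures against the growth of fibroblasts. Values are log2 RMA values, which are normalized between arrays, so a difference of 1 is a doubling of signal.

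Fibroblasts build the matrix of connective tissue, and in the retina and optic nerve they lie in the meninges and around vessels. Type I collagen, made of the chains encoded by Col1a1 and Col1a2, forms fibrils, and the small leucine-rich proteoglycans lumican (Lum) and decorin (Dcn) bind to them and control their spacing. Fibronectin (Fn1) and periostin (Postn) connect such fibrils with integrins on the cell surface, and both are known targets of TGF-beta. TSP1 is itself a matrix protein, secreted by astrocytes and by other cells, and is known to activate latent TGF-beta.

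The arrays read as RGCs. All 13 measured of 14 RGC markers lay above the median of every array, with a mean log2 value between 11.61 and 11.67 over the 6 arrays. The median of an array lay between 5.96 and 5.99, and no detection call is given, so signal under it may be background, and a difference that reaches such values can understate the change in mRNA. Of 35 fibroblast and meningeal markers, 14 lay above the median on every array and 14 below it on every array, and Fap, Twist2, Prrx1 and Tbx18 were among those below. None was at 0, as the lowest value of any array was 2.76. Fewer cells of a type and less RNA per cell cannot be told apart in these arrays.

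Inmt, which encodes a methyltransferase that acts on indoleamines such as tryptamine, showed the widest gap. Its log2 values were 5.07 and 5.52 with TSP1 (cultures 1 and 2), 7.34 and 8.36 with Gpc4 and 7.44 and 8.28 in untreated RGCs. Both TSP1 arrays lay below all other arrays, and only the TSP1 values were under the array medians. The difference from untreated was -2.57 (standard error 0.37), with -2.37 in culture 1 and -2.76 in culture 2, and it was the lowest of all 31042 probe sets.

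Ccl11, which encodes the eosinophil-attracting chemokine eotaxin, came next in that order. It had log2 values of 4.20 and 3.89 with TSP1, 4.28 and 5.50 with Gpc4 and 5.17 and 6.65 in untreated RGCs. Only the untreated array of culture 2 reached above its array median, so most of this gap lies in dim signal. The difference from untreated was -0.97 in culture 1 and -2.76 in culture 2, where the untreated value was highest. The unpaired mean of -1.87 became -1.125 without the untreated array of culture 2 and -2.605 without that of culture 1.

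Cebpd encodes C/EBP delta, a transcription factor of inflammatory and acute-phase responses. Its brightest probe set had log2 values of 5.49 and 5.39 with TSP1, 6.13 and 6.25 with Gpc4 and 6.20 and 6.54 in untreated RGCs, a difference of -0.93 from untreated (standard error 0.13). A dimmer probe set went the same way, with 4.13 and 4.69 with TSP1 and 5.53 and 5.86 in untreated RGCs. The dimmest lay at 3.90 and 3.94 with TSP1 against 3.77 and 3.78 in untreated RGCs. The brighter pair thus placed both TSP1 arrays lowest, and the dimmest, far under the array medians, showed a difference of 0.145 with the opposite sign.

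Frzb encodes a secreted antagonist of Wnt ligands. Its log2 values were 4.94 and 5.01 with TSP1, 5.62 and 6.16 with Gpc4 and 5.46 and 5.75 in untreated RGCs, a difference of -0.63 from untreated (standard error 0.18). A further Frzb probe set had 4.85 and 4.91 with TSP1 and 4.79 and 5.45 in untreated RGCs, so that the groups overlapped. Frzb signal was low throughout and passed the array median only on the Gpc4 array of culture 2.

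**Figure D1:**
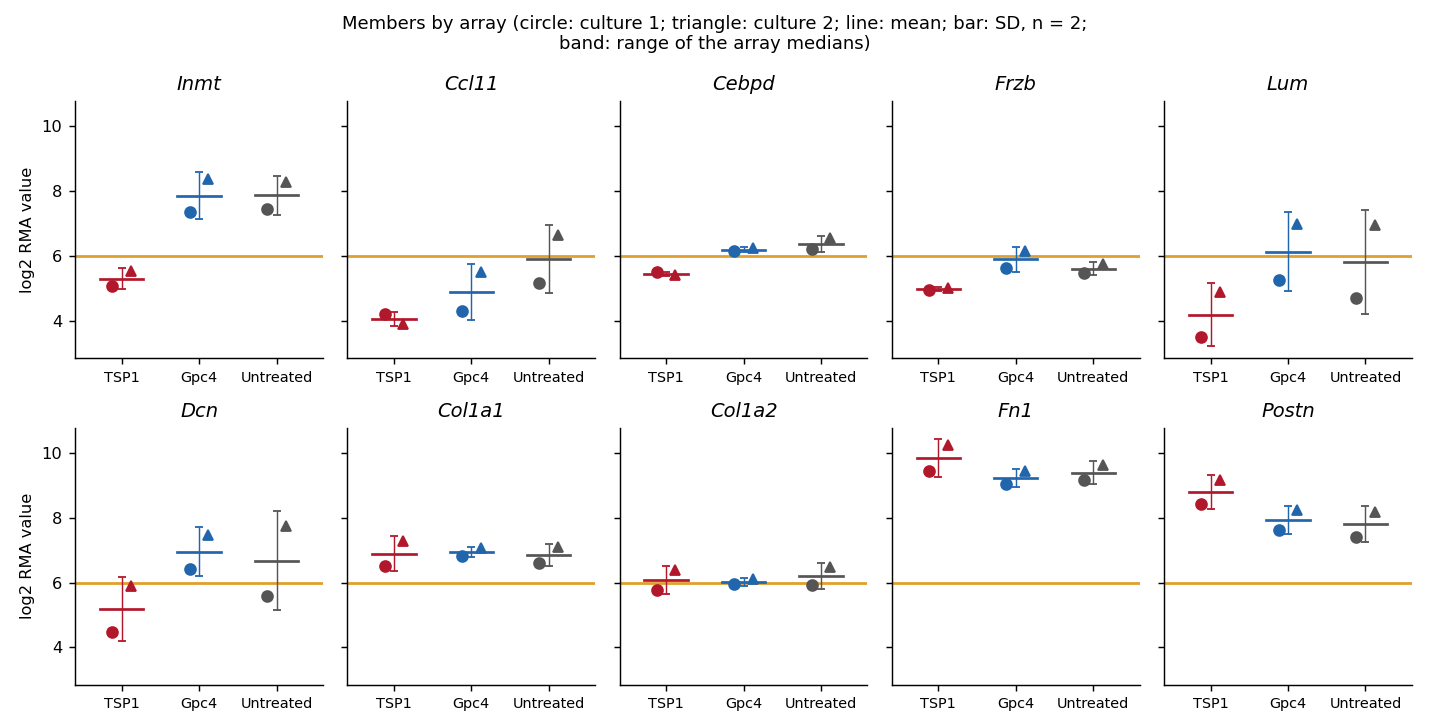
Log2 RMA value (y axis) of each member's brightest probe set on each array, by condition (x axis); circles are culture 1, triangles culture 2, lines means, bars SDs (n = 2) and the band the range of the array medians. Inmt stands at 5.07 and 5.52 with TSP1 and at 7.34 or above on all other arrays, while Postn is highest with TSP1.

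The fibroblast and matrix genes went in different directions with TSP1. The proteoglycan genes Lum and Dcn were lower in both cultures. Lum had log2 values of 3.49 and 4.87 with TSP1, 5.26 and 6.99 with Gpc4 and 4.68 and 6.95 in untreated RGCs. Dcn had 4.48 and 5.88 with TSP1, 6.41 and 7.48 with Gpc4 and 5.59 and 7.75 in untreated RGCs. The difference from untreated was -1.19 and -2.08 for Lum and -1.11 and -1.87 for Dcn in cultures 1 and 2, within the 6 lowest of all probe sets on average. For both genes the TSP1 array of culture 2 still lay above the untreated array of culture 1, and the cultures differed by about as much as the conditions. With the untreated array of culture 2 left out, the unpaired difference was -0.50 for Lum and -0.41 for Dcn, and without that of culture 1 it was -2.77 and -2.57. Such unpaired values also take in the difference between the cultures.

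The type I collagen genes stayed near their untreated values. Col1a1 had log2 values of 6.51 and 7.27 with TSP1, 6.83 and 7.06 with Gpc4 and 6.61 and 7.10 in untreated RGCs, above the array median throughout. Col1a2 had 5.76 and 6.38 with TSP1, 5.94 and 6.10 with Gpc4 and 5.91 and 6.48 in untreated RGCs. The groups overlapped for both genes. Over the 4 probe sets of the pair, the mean difference between TSP1 and untreated lay between -0.125 and 0.035, and 3 of the 4 had opposite signs in the cultures.

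Fn1 and Postn, the genes of fibronectin and periostin, were higher with TSP1. Postn had log2 values of 8.43 and 9.16 with TSP1, 7.62 and 8.24 with Gpc4 and 7.42 and 8.19 in untreated RGCs. Both TSP1 arrays lay above all others, all 6 values were well above the array medians, and the difference from untreated was 1.01 in culture 1 and 0.97 in culture 2, a 1.99-fold mean. The unpaired mean of 0.99 became 0.605 without the untreated array of culture 1 and 0.625 without the TSP1 array of culture 2, and 1.375 without the untreated array of culture 2. Fn1 had 9.43 and 10.25 with TSP1, 9.04 and 9.43 with Gpc4 and 9.15 and 9.64 in untreated RGCs. It was higher by 0.28 and 0.61 within the cultures, a 1.36-fold mean, with TSP1 in culture 1 below untreated in culture 2. Without the TSP1 array of culture 2 the unpaired Fn1 difference was 0.035, which also takes in the difference between the cultures.

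**Figure D2:**
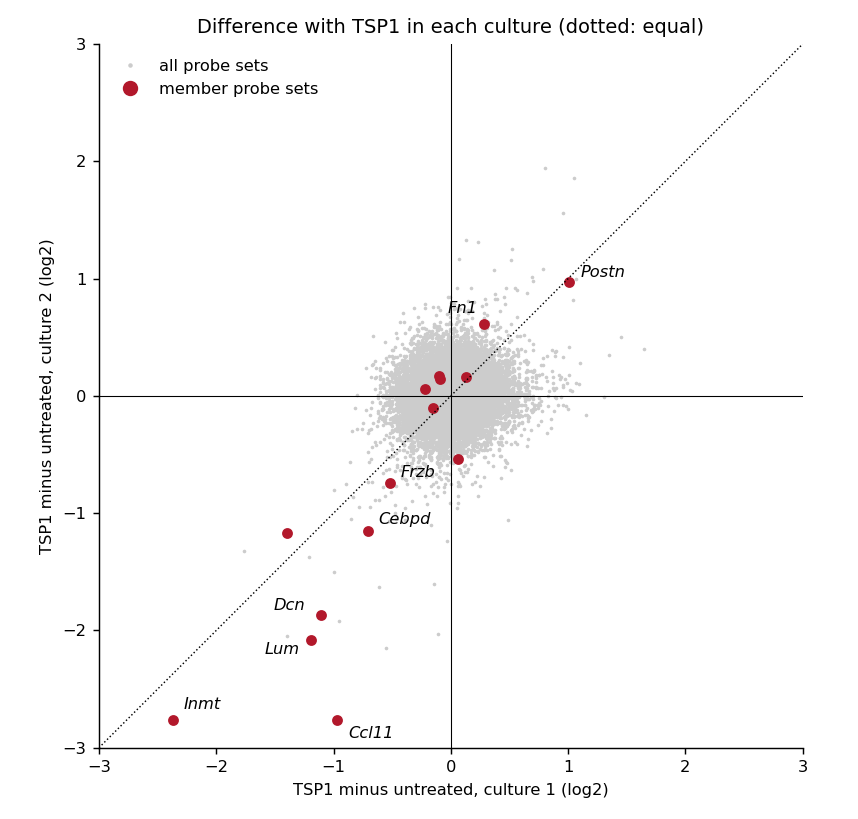
Difference between TSP1 and untreated (log2) in culture 1 (x axis) and culture 2 (y axis) for every probe set, with the 15 member probe sets in red; the dotted line marks equal differences. Inmt, Lum, Dcn, Ccl11 and Cebpd lie far below 0 in both cultures, Postn lies at 1.01 and 0.97, and the collagen probe sets lie within the bulk.

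Across all probe sets, 0% passed an adjusted p under 0.05 between TSP1 and untreated with limma, which fits a linear model per probe set and borrows the variance from the others, and so did 0 of the 15 member probe sets. At an unadjusted p under 0.05 there were 1367 probe sets in all (4.4%), and the methods' t-test gave 0 after Benjamini-Hochberg adjustment. With the culture as a replicate block 0.0129% passed. The members that passed then were 1 probe set each of Inmt and Cebpd, lower, and that of Postn, higher, which is part of how they came to be members. Of the 15 probe sets, 8 were lower with TSP1 in both cultures, where 25.4% of all probe sets were, and 3 were higher in both, where 23.7% were. Both TSP1 arrays lay below all 4 other arrays for 5 member probe sets (4.83% of all) and above them for 2 (4.91% of all), Postn and the dimmest one of Cebpd. Since the members were picked on this comparison, these counts only describe the choice.

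With Gpc4, Ccl11 was lower than untreated in both cultures and no member passed. Between Gpc4 and untreated, 0.0838% of all probe sets passed with limma, and 0 of the 15 member probe sets did, with 0 also at an unadjusted p under 0.05 (6.88% of all), by the methods' t-test unadjusted (5.49% of all) and with the replicate block (0.206% of all). This comparison shares the untreated arrays with the one on which the members were picked. The largest member difference with Gpc4 was -1.02 for Ccl11 (standard error 0.50), at -0.89 in culture 1 and -1.15 in culture 2, against -1.87 with TSP1 on average. With 1 array left out, this Ccl11 value was -0.28 (without the untreated array of culture 2), -0.41 (without the Gpc4 array of culture 1), -1.63 (without the Gpc4 array of culture 2) or -1.76 (without the untreated array of culture 1). For Inmt it was -0.01, for Postn 0.125 and for Fn1 -0.16. Lum was higher by 0.58 and 0.04 and Dcn by 0.82 and -0.27 with Gpc4 in cultures 1 and 2, so that Dcn had no common sign. Between TSP1 and Gpc4, which share the TSP1 arrays with the comparison used for the choice, 0 member probe sets passed (0.0612% of all) and 7 had an unadjusted p under 0.05 (4.51% of all). With the replicate block 6 did (0.258% of all): Postn, higher, and 1 probe set each of Inmt, Cebpd, Frzb, Lum and Dcn, lower. Inmt, Cebpd and Frzb were picked by their values on these TSP1 arrays, and Postn had stood out on them. The counts between TSP1 and Gpc4 thus follow in part from the choice and are a description only.

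RefSeq (build GRCr8) gives a promoter for 5 of the 10 members, and the 250 bases before each annotated start are shown because these genes differ in how they stood with TSP1: Inmt, Frzb and Lum lower, Col1a2 near untreated and Postn higher. They were searched on both strands for the TATA box (TATAAA), the CCAAT box (CCAAT) and the C/EBP-type site TTGCNNAA, which C/EBP delta can bind, and capitals mark each match.
Inmt, chr4:85652756-85653005, minus strand: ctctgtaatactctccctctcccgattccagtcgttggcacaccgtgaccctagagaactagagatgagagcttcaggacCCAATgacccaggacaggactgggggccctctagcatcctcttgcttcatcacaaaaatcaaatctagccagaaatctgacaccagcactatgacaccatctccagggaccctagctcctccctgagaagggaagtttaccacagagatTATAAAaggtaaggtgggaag
Frzb, chr3:85772097-85772346, minus strand: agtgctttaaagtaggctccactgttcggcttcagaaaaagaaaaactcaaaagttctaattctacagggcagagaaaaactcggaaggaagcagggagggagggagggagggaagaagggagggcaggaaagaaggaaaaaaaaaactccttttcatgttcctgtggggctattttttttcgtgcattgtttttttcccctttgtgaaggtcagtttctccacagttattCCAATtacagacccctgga
Lum, chr7:34245456-34245705, plus strand: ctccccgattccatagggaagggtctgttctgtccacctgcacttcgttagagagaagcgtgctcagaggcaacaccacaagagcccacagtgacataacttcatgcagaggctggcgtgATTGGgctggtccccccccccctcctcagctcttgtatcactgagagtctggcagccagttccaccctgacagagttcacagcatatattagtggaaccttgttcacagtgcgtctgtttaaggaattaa
Col1a2, chr4:33518307-33518556, plus strand: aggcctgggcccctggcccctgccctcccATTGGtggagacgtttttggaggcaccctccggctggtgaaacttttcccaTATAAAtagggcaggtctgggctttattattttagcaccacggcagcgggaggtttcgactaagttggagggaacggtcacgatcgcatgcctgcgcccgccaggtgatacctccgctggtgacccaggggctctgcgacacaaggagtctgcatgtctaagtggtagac
Postn, chr2:140677811-140678060, plus strand: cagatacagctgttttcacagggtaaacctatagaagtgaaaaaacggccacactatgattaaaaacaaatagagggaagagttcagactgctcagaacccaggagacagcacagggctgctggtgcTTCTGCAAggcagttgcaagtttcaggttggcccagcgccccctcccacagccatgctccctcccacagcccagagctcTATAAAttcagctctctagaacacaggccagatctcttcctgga
A CCAAT box lies in the windows of Inmt, Frzb, Lum and Col1a2, and 34% of all 33469 windows of this length hold 1. A TATA box lies in those of Inmt, 21 bases before the start, Postn, 44 bases before it, and Col1a2, 170 bases before it, against 12.9% of all windows. The C/EBP-type site was found for Postn, 123 bases before the start, where 9.22% of all windows hold 1, and in none of the other 4 windows. The motifs did not overlap each other, and a match is a description of these letters only.

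The cultures differed in these genes, and this comparison does not reuse the difference that picked the members. Its fit does have the same residual spread as the replicate block, with which Inmt, Cebpd and Postn had passed. The p-values of those genes here are thus not independent of the choice. There was only 1 culture on each side, and its 3 arrays, 1 per condition, are not replicate cultures. The p-values between the cultures thus measure how steady a gap was over the 3 conditions, not how far RGC cultures in general differ. Anything else that differed between the replicate numbers cannot be told apart from the culture. In 12 of the 15 member probe sets culture 2 was higher than culture 1 in all 3 conditions, where 13.9% of all probe sets were, and in none was it lower in all 3 (17.5% of all). With the condition kept in the fit, 4 member probe sets passed as higher in culture 2 and 0 as lower, where 0.432% of all probe sets passed as higher and 0.561% in either direction. At an unadjusted p under 0.05 there were 13 of the 15, against 11.3% of all. Lum was higher by 1.79 on the log2 scale (standard error 0.15, adjusted p = 0.0031 from limma), with 1.38 with TSP1, 1.73 with Gpc4 and 2.27 in untreated RGCs. Dcn was higher by 1.54 (standard error 0.18, adjusted p = 0.010 from limma), with 1.40, 1.07 and 2.16 in the same order. The genes of both proteoglycans thus differed between cultures by about as much as between TSP1 and untreated arrays.

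Postn was higher in culture 2 by 0.71 (1.63-fold, adjusted p = 0.0061 from limma), at 0.73 with TSP1, 0.62 with Gpc4 and 0.77 in untreated RGCs. Inmt was higher by 0.77 (adjusted p = 0.029 from limma), at 0.45 with TSP1, 1.02 with Gpc4 and 0.84 in untreated RGCs. Fn1 was 1.48-fold higher in culture 2 without passing (adjusted p = 0.063 from limma), and passed when the test was limited to probe sets whose mean log2 value reached 6. The brightest probe sets of Col1a1 (0.49, adjusted p = 0.14 from limma) and Col1a2 (0.45, adjusted p = 0.16 from limma) were higher in culture 2 in every condition too. The brightest probe sets of Cebpd (0.12), Frzb (0.30) and Ccl11 (0.80, with -0.31 on the TSP1 arrays) did not pass, with adjusted p from 0.33 to 0.67 from limma. Nor did the second Cebpd probe set (0.42, adjusted p = 0.087 from limma) and the second Frzb probe set (0.44, adjusted p = 0.25 from limma). With any 1 array left out, 0 of all probe sets passed between the cultures, with fewer residual degrees of freedom. The differences then still lay between 1.555 and 2.00 for Lum, 1.235 and 1.78 for Dcn, 0.675 and 0.75 for Postn and 0.645 and 0.93 for Inmt.

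The wider list of fibroblast and meningeal markers showed the same 2 patterns. Of its 35 genes, 10 passed as higher in culture 2 and 0 as lower. Of all 14217 named genes, each by its brightest probe set as in the lists, 93 passed as higher and 30 as lower (0.432% and 0.129% of all probe sets). The median difference of the 35 between cultures was 0.48, against 0 for all named genes. The 10 that passed include Mgp, an inhibitor of calcification (1.09), the collagen gene Col5a2 (0.94) and the adhesion gene Cdh11 (0.88), beside Lum, Dcn and Postn. Between TSP1 and untreated, none passed, 16 were lower in both cultures (26.4% of all named genes were), 9 were higher in both (23.4% of all named genes) and 10 had no common sign, and the median difference was -0.085, against -0.005 for all named genes. The largest differences of common sign were those of Lum, Dcn and Pdgfra, a receptor of platelet-derived growth factor that marks fibroblasts and some glial precursors. Pdgfra had log2 values of 5.77 and 5.62 with TSP1, 6.35 and 7.75 with Gpc4 and 6.32 and 7.77 in untreated RGCs. Its difference from untreated, -0.55 in culture 1 and -2.15 in culture 2, was wider where the untreated value was higher, as for Ccl11. Igf2, next in this order, had a difference only slightly wider in culture 2, at -1.21 and -1.37 in cultures 1 and 2. It was also lower with Gpc4, at -0.825 on average. S100a4 went the other way, at -0.86 and -0.56, with untreated values of 7.97 and 8.43.

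**Figure D3:**
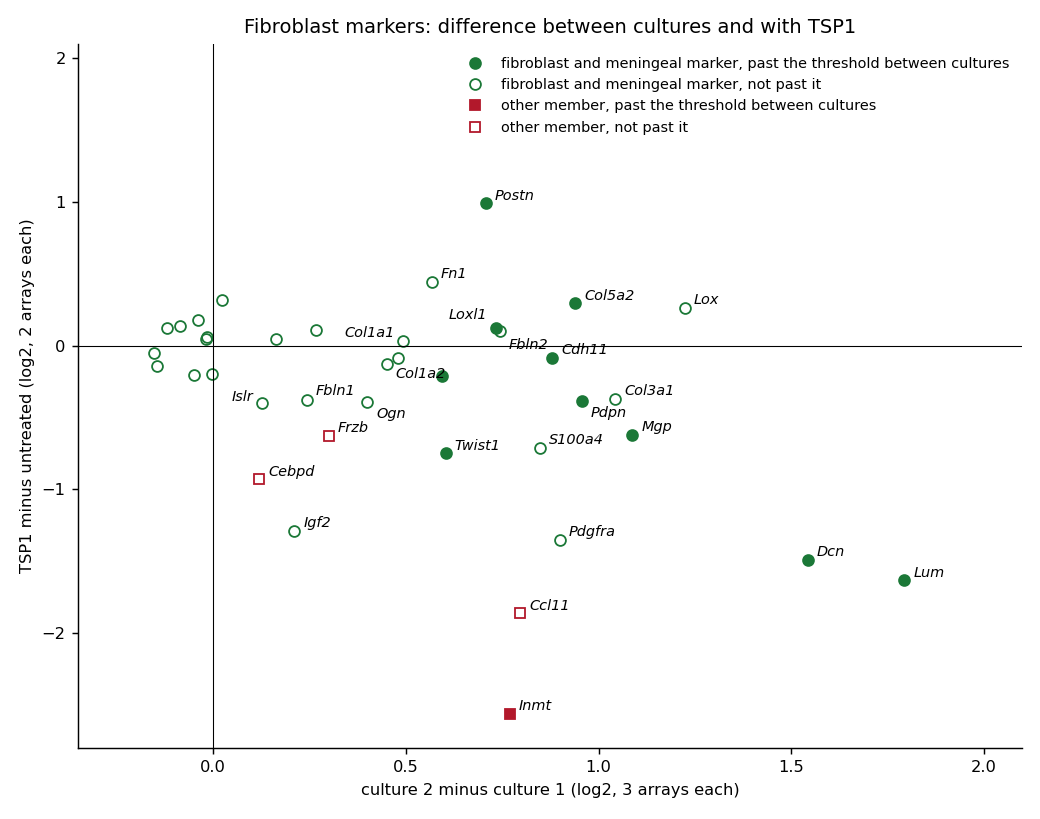
Difference between culture 2 and culture 1 (x axis, log2) and between TSP1 and untreated (y axis, log2) for the 35 fibroblast and meningeal markers (circles) and for Inmt, Ccl11, Cebpd and Frzb (squares); filled symbols passed between the cultures. Genes that were higher in culture 2 spread from -1.64 for Lum to 0.99 for Postn with TSP1.

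Summed over its 35 genes on the linear scale, the fibroblast list had 3712 and 6488 with TSP1 (cultures 1 and 2), 4207 and 6961 with Gpc4 and 4084 and 7223 in untreated RGCs. The TSP1 arrays had the lowest sum in each culture, but in culture 2 this order rested on Mgp, the brightest gene of the list. Without it the sums were 3054 and 5099 with TSP1, 3132 and 4781 with Gpc4 and 3102 and 5028 in untreated RGCs. TSP1 was then still lowest in culture 1 but had the highest sum in culture 2. That lead over untreated rested in turn on the bright members Fn1 and Postn, and Postn had stood out in this comparison before. In culture 2 their log2 values were 10.25 and 9.16 with TSP1 and 9.64 and 8.19 in untreated RGCs. With or without Mgp, culture 2 exceeded culture 1 in every condition by more than the conditions differed within a culture. RGC markers held level, at 82030 and 81360 with TSP1, 81550 and 81660 with Gpc4 and 82470 and 81100 in untreated RGCs. Of 12 microglia and macrophage markers, 4 passed as lower in culture 2 and 0 as higher. The 4 were C1qa, C1qb, C1qc and Tyrobp. Of all 14217 named genes, 30 passed as lower and 93 as higher (0.129% and 0.432% of all probe sets). Over the 12 markers the median difference was -0.53, the opposite of the fibroblast list. The 12 markers summed to 743.3 and 413.4 with TSP1, 578.6 and 439.2 with Gpc4 and 660.5 and 385.9 in untreated RGCs. Medians between TSP1 and untreated were 0.0825 for the microglia list and lay between -0.0775 and 0.0325 for the mural, endothelial, glial, pigment epithelium, photoreceptor and RGC lists, and the part of these cells in the members' values was not tested.

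The matrix lists held genes of both directions with TSP1. Among all named genes, 26.4% were lower in both cultures and 23.4% were higher in both. Of 8 small leucine-rich proteoglycans, 4 were lower with TSP1 in both cultures and 0 higher. Beside Lum and Dcn, Ogn (osteoglycin) was lower by 0.27 and 0.51, at values under the array medians, while biglycan (Bgn) was at -0.28 and 0.04. Of 22 genes of fibronectin, periostin and other matricellular proteins with their integrins, 10 were higher in both cultures and 4 lower. None passed but Postn with the replicate block, and Postn had stood out in this comparison before. Tnc, the gene of tenascin C, stood next to Postn, with log2 values of 7.74 and 8.88 with TSP1, 6.26 and 7.03 with Gpc4 and 6.67 and 7.88 in untreated RGCs. Ccn2, the gene of connective tissue growth factor and a known TGF-beta target, was higher by 0.70 and 0.98. Of 21 genes of fibrillar collagens and their processing, 7 were lower and 4 higher with TSP1 in both cultures, and the mean over both cultures stayed within 0.42 of untreated on the log2 scale. Within culture 2, the widest were Col3a1 at -0.72 and Lox at 0.75.

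Gene lists around Inmt, Frzb and Cebpd held few differences of that size. Among 9 methyltransferases for amines and other small molecules, Inmt was at -2.57 and all others between -0.16 and 0.205. Among 8 secreted Wnt antagonists, Frzb was at -0.63, and its relatives Sfrp2 and Sfrp4 were higher by 0.315 and 0.245. Among 12 genes of the C/EBP family and its acute-phase targets, the difference was -0.93 for Cebpd, -0.02 for Cebpb and 0.035 for Cebpg. A2m, the gene of alpha-2-macroglobulin, was at -0.59, and the complement gene C3 was at 0.38. Of the 12, 2 were lower in both cultures (26.4% of all named genes) and 2 higher (23.4%), and the median was -0.0225.

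**Figure D4:**
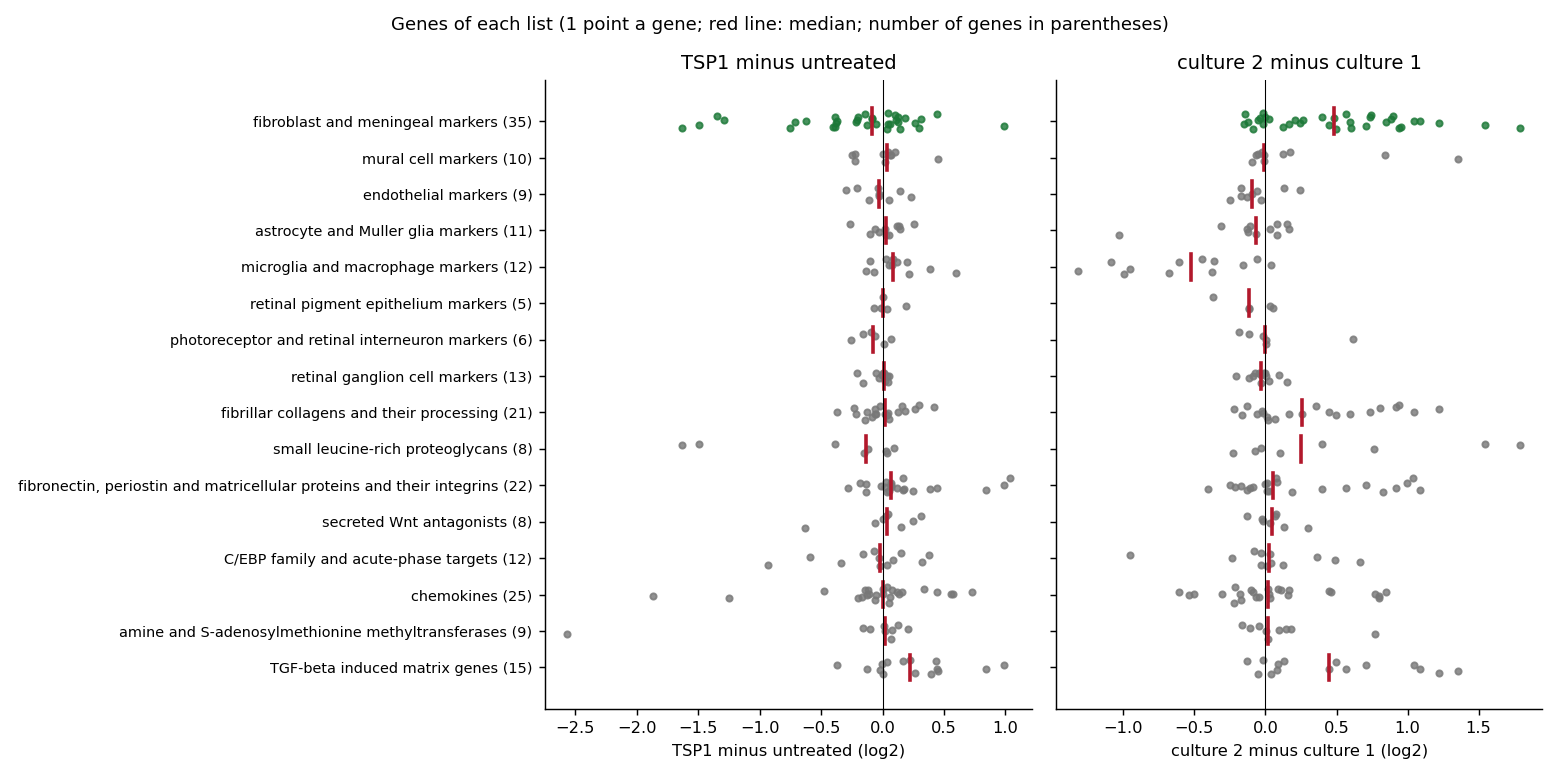
Difference between TSP1 and untreated (left) and between culture 2 and culture 1 (right), on the log2 scale, for the genes of 16 lists, with 1 point per gene and red lines at the medians. Fibroblast markers spread widely around a median of -0.085 on the left and lie at a median of 0.48 on the right, where microglia markers lie at -0.53.

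Over the 6 arrays some members had like profiles. Likeness was taken as the root mean square difference between profiles centred on their own mean, in log2 units over the 6 arrays. It is not scaled, so a flat profile lies far from a wide one even where both go the same way. Lum and Dcn (0.21), Col1a1 and Col1a2 (0.12), Cebpd and Frzb (0.23) and Fn1 and Postn (0.25) were close pairs. Fn1 also lay 0.28 from Col1a1 and from Col1a2. Inmt stood nearer to Dcn (0.65), Lum (0.66) and Ccl11 (0.76) than to Cebpd and Frzb (0.88 each), Col1a1 (1.23), Fn1 (1.47) or Postn (1.65). It lay 1.07 from the mean profile of the 6 fibroblast markers. That mean joins Lum and Dcn, lower with TSP1, with Fn1 and Postn, higher, so that these differences partly offset each other. Lum (0.83), Dcn (0.70) and Postn (0.61) themselves lay well away from it. The values share arrays, cultures and conditions, so this is a description only.

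Among named probe sets outside the members with a range of at least 1 on the log2 scale, those nearest to Inmt were the interferon-inducible genes Ifitm1 (0.55) and Ifitm3 (0.58), the chemokine gene Cxcl1 (0.58), Pdgfra (0.63), Olfml3 (0.76) and Ctsc, the gene of cathepsin C (0.77). Ifitm3 had log2 values of 5.87 and 7.46 with TSP1, 7.62 and 9.01 with Gpc4 and 7.63 and 8.78 in untreated RGCs. Cxcl1 had 6.87 and 7.12 with TSP1, 7.83 and 9.22 with Gpc4 and 7.87 and 8.62 in untreated RGCs, above the array medians throughout. All 6 were lower with TSP1 in both cultures, which follows from the search, as Inmt was picked for its low TSP1 values. Inmt itself, at a smaller difference between cultures and a larger one with TSP1, stood apart from each by more than 0.5. Nearest to the mean of the 6 fibroblast markers were Mgst1 (0.078), the collagen chaperone gene Serpinh1 (0.10), the syndecan gene Sdc4 (0.10), Axl (0.10), Tmem123 (0.11) and RT1-CE5 (0.11). Their main difference lay between the cultures, from 0.75 to 0.85, and TSP1 differed from untreated by -0.40 to -0.175.

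**Figure D5:**
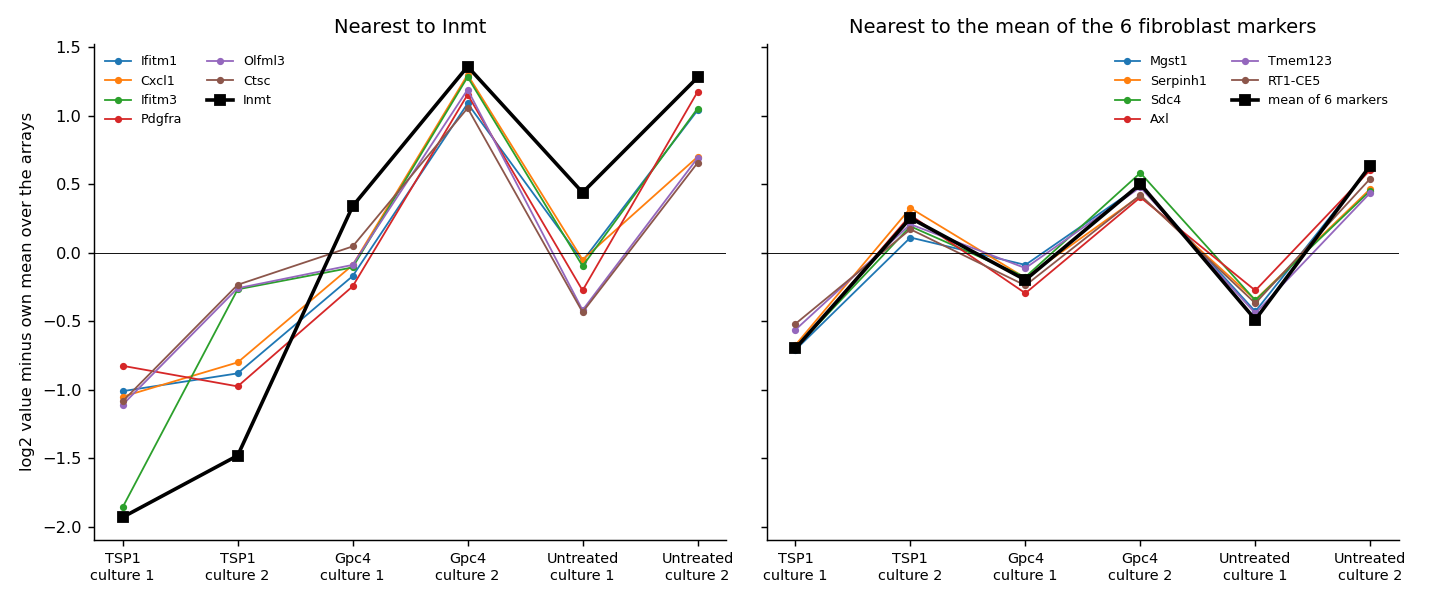
Log2 value minus its own mean over the arrays (y axis) on each array (x axis), for Inmt and the 6 named genes nearest to it (left) and for the mean of the 6 fibroblast markers and the 6 nearest to that (right); lines join arrays only to guide the eye. Inmt is lowest with TSP1 in both cultures. The mean of the markers, in which opposite differences with TSP1 partly offset each other, differs mainly between culture 1 and culture 2.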

How the data were processed

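RNA from 2 separate RGC cultures, each under 3 conditions, was hybridised to 6 Affymetrix rat expression arrays. The authors made the deposited values with Affymetrix Expression Console, whose version is not given in the sources used here. A sheet name of the study's full table calls them RMA, which corrects background, normalizes between arrays and summarises probe sets. The deposited values are on the log2 scale with 2 decimals. Of 31042 probe sets, 20826 have 1 gene symbol (14217 genes), 436 have several and 9780 have none here, and only the first kind was named.

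Groups came from the sample labels. The fits used R 4.3.3 and its package limma 3.58.1 (functions lmFit, then eBayes, 3 residual degrees of freedom, Benjamini-Hochberg adjustment over all probe sets, threshold 0.05), which was tested on simulated data. The 3 conditions were compared without a block, and culture 2 with culture 1 with the condition in the fit. Replicate numbers paired the samples: they mark separate cultures, and same-numbered arrays deviated together (r = 0.29 to 0.37 between conditions). The precision is limited by the number of arrays, 2 per condition, and by the 2 cultures, which are compared as 1 against 1.

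All probe sets of the members were reported. For 16 gene lists, the probe set of highest mean stood for a gene, and named genes were up to 3 with the largest difference between TSP1 and untreated of 1 sign in both cultures. Further list genes (Mgp, Col5a2, Cdh11, Igf2, S100a4, Bgn, Sfrp2, Sfrp4, Cebpb and Cebpg, and those called between the cultures) were named after their values were seen. The members and lists were chosen with earlier results of these data known. Alternatives were a filter on the mean, a trended variance, further median or quantile normalization, the replicate block, fewer groups, no condition term, means over probe sets, the methods' t-test and leaving out each array. Leaving out an array unbalances the cultures, so an unpaired difference between conditions then also takes in the culture difference.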

Additional observations from a re-analysis of the deposited data

Results flagged for a closer look

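For 4 member probe sets the difference between TSP1 and untreated had opposite signs in the cultures, on 1 array per condition and culture, and the difference between the cultures was not tested. The dimmer Frzb probe set was at 0.06 in culture 1 and -0.54 in culture 2. The Col1a1 probe sets were at -0.10 and 0.17 (the brighter one) and at -0.22 and 0.06. The dimmer Col1a2 probe set was at -0.09 and 0.14.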

How the results depend on the processing

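Between TSP1 and untreated, 0 probe sets passed, against 4 with the replicate block, 1280 by the methods' t-test unadjusted, and 0 to 1 when each array was left out (1 without Untreated replicate 1). Between Gpc4 and untreated, 26 passed, against 49 with a trended variance, 64 with the replicate block, 13 with only the 2 groups compared, 0 by the methods' t-test adjusted and 1704 unadjusted, and 2 to 13 when each array was left out. Between TSP1 and Gpc4, 19 passed, against 31 among probe sets whose mean log2 value reached 6, 39 with a trended variance, 80 with the replicate block, 0 by the methods' t-test adjusted and 1433 unadjusted, and 2 to 13 when each array was left out. Between the cultures 174 passed, against 264 with a trended variance, 69 with no condition term and 0 to 0 when each array was left out, which leaves fewer arrays. The culture calls of Inmt, Lum, Dcn and Postn were lost in those last 2 settings, with the differences about as large. The dimmest Cebpd probe set, at -0.023 between cultures, was at 0.015 with quantile normalization and between -0.055 (without TSP1 replicate 1) and 0.025 (without either Gpc4 array) when each array was left out. The summed level of the fibroblast list without Mgp, a setting chosen after seeing the data, turned the order of TSP1 and untreated in culture 2. With 2 arrays per condition and no detection call, differences under the array medians cannot be bounded.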

Other observations

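A list of 15 measured TGF-beta targets joins matrix genes with others such as Smad7 and Tagln. Of these 15, 8 were higher with TSP1 in both cultures (23.4% of all named genes were) and 2 were lower (26.4%). The list holds Postn, which had stood out in this comparison before. The median difference over the list was 0.225, against -0.005 for all named genes, and none passed without the replicate block (Postn did with it). With Gpc4 the list median was 0.09, against -0.01 for all named genes. Beside Postn and Fn1, Tagln, the gene of the actin-binding protein transgelin, had log2 values of 8.35 and 10.03 with TSP1, 8.56 and 9.57 with Gpc4 and 8.05 and 9.43 in untreated RGCs. Smad7, a feedback inhibitor of TGF-beta signalling, had 6.66 and 6.59 with TSP1, 7.76 and 7.87 with Gpc4 and 6.01 and 6.37 in untreated RGCs, and passed as higher with Gpc4. Tagln and Ccn2 were also higher in culture 2, by 1.36 and 1.09 (adjusted p = 0.0037 and 0.0059 from limma).

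Chemokine genes had no common direction with TSP1. Of 25 measured, 6 were lower in both cultures (26.4% of all named genes were) and 9 higher (23.4%). The median difference was 0.005, and none passed. Beside Ccl11 and Cxcl1, which were lower, Ccl2, a monocyte attractant, had log2 values of 8.27 and 9.13 with TSP1, 7.56 and 8.73 with Gpc4 and 7.71 and 8.23 in untreated RGCs. Between the cultures Ccl2 and Ccl7 passed as higher in culture 2 and Ccl4 as lower.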
